A study of Rattus norvegicus with 56 samples.

Results

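The treatment difference was examined in the 8 arrays, of 56 in the series, whose title names a pool of exactly 3 rats. They are 4 treated and 4 control pools, which together hold 12 treated and 12 control rats. All rats were female Wistar Furth rats, an inbred strain long used in mammary cancer research, and the tissue was the mammary gland. The labels give the treated rats an RXR treatment and name the others only as control. The sources used here name neither compound, dose, duration nor age, and no gene checks the treatment label directly. RNA of each rat was labelled separately from 5 µg of total RNA. Equal amounts of the fragmented targets of 3 rats were then mixed to 10 µg and hybridised to 1 array, so mixing followed labelling. Treated pool 1 held rats 10, 11 and 4, pool 2 held rats 12, 14 and 7, pool 3 held rats 2, 3 and 5, and pool 4 held rats 6, 8 and 9. Control pool 1 held rats 10, 11 and 13, pool 2 held rats 12, 14 and 15, pool 3 held rats 2, 3 and 5, and pool 4 held rats 6, 8 and 9. The numbers are those of separate animals in each group. The same rats also have single arrays and belong to other mixtures, so designs share their rats.

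RXR, the retinoid X receptor, is a nuclear receptor that binds DNA mostly in pairs with other receptors, among them PPAR, LXR, the retinoic acid, thyroid hormone and vitamin D receptors. With PPAR and LXR it governs genes of fat storage, fatty acid oxidation and cholesterol handling, and its ligands are known to raise circulating triglycerides. The resting mammary gland is an epithelial tree of luminal and basal cells inside a large fat pad, so its RNA comes from adipocytes, epithelium, stroma, vessels and immune cells together. In such bulk tissue fewer cells of a type and less RNA per cell cannot be told apart, which holds for every result here.

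The 8 arrays had medians between 7.41 and 7.47 log2, and no count or depth exists for arrays, so their number limits the precision. Epithelial and fat markers were both bright: the milk protein gene Lalba lay between 11.96 and 13.22 log2 and the desaturase gene Scd between 13.31 and 13.87. Member rats in diestrus numbered 1, 1, 1 and 3 in treated pools 1 to 4 and 2, 3, 2 and 2 in control pools. A technical score ran from -1.85 to 13.26 in treated and from 0.165 to 15.01 in control pools. It was read off repeated arrays of the pools of 12 rats and of rat 3 of each group. The pools of rats 2, 3 and 5 stand farthest from their own rats in this score, which rat 3 helped to define. They read 13.26 over a mean of -6.11 for the treated pool and 9.87 over -4.64 for the control pool. Pools 4 also lay above their rats, at 15.01 over 4.28 for the control pool and 7.06 over 0.455 for the treated pool. Without both pools of rats 2, 3 and 5, 281 probe sets were called higher and 179 lower. At an adjusted p of 0.05 limma called 990 of 15866 probe sets (6.24%). Treated pools were higher in 518 (3.26%) and lower in 472 (2.97%). The replicate block, explained with the processing, left 634 higher and 763 lower. Centring of each array on its median gave 592 rises and 300 falls, that is 66.4% of calls higher in place of 52.3%. Rises reached further than falls, with 46 calls over 1 log2 higher and 6 lower. Without treated pool 2 there were 503 calls, without treated pool 1 there were 678, without control pool 3 there were 650 and without control pool 4 there were 644. For 1897 probe sets (12%) the groups did not overlap, 747 (4.71%) with treated pools above and 1150 (7.25%) below. With 1 probe set for each of 10411 genes, 390 genes (3.75%) were higher, 352 (3.38%) lower, and the median difference was -0.04 log2. Each pool holds other rats and was hybridised once, so the errors below mix animals and arrays.

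**Figure D1:**
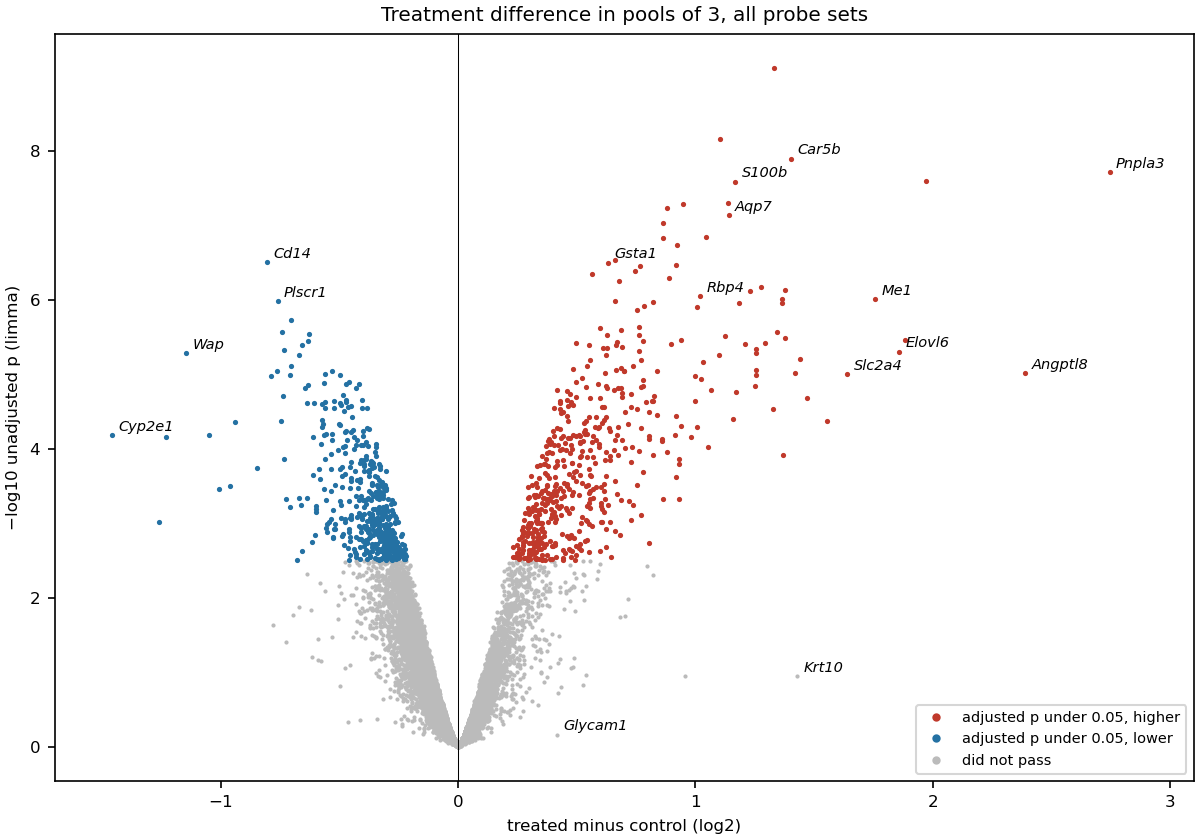
Each point is 1 of 15866 probe sets, with the difference treated minus control in log2 on the x axis and −log10 of limma's unadjusted p on the y axis. Red and blue points passed an adjusted p of 0.05 as higher (518) and lower (472), and the farthest points lie on the side of the rises, led by Pnpla3 at 2.75.

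The largest rise belonged to Pnpla3, a protein of lipid droplets that is induced by feeding. Its log2 values were 10.85, 10.63, 10.29 and 9.88 in treated pools 1 to 4 and 7.85, 8.03, 7.54 and 7.25 in control pools 1 to 4. The lowest treated pool stood well above the highest control pool, and the difference was 2.75 ± 0.20 log2 (SE, 4 against 4 pools; limma adjusted p = 6.76e-05), a 6.70-fold rise. Angptl8, a secreted regulator of lipoprotein lipase made after feeding, read 9.60, 9.87, 8.67 and 8.26 against 6.98, 7.18, 6.22 and 6.46. Its pools were the most uneven among the 12 largest rises of called genes, yet the groups did not overlap (2.39 ± 0.32, SE). Elovl6, which elongates palmitate, read 12.42, 12.14, 11.63 and 11.16 against 10.06, 10.29, 9.99 and 9.58, a rise of 1.86 ± 0.23 (SE). Me1, malic enzyme, a source of NADPH for fatty acid synthesis, rose by 1.76 ± 0.19 (SE) from 10.26, 10.84, 10.79 and 10.22 in control pools to 12.53, 12.59, 12.25 and 11.77. Slc2a4, the insulin-responsive glucose transporter GLUT4, read 10.45, 10.36, 9.81 and 9.23 against 8.40, 8.53, 8.29 and 8.07. In all 5 genes the treated pools followed nearly the same order, with pool 1 or 2 highest and pool 4 lowest.

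Car5b, a mitochondrial carbonic anhydrase, had the most even values of the rises. They were 10.60, 10.64, 10.36 and 10.17 against 9.08, 9.08, 9.08 and 8.92 (difference 1.40 ± 0.10, SE). The other 6 of the 12 were Gys2 and Pygl, which make and break down glycogen, Mpc1, which carries pyruvate into mitochondria, Pdk1 and Pdhb of the pyruvate dehydrogenase step, and C8h11orf54. Their differences ran from 1.34 for Pdhb to 1.47 for C8h11orf54. All 12 had groups that did not overlap, beside 12% of all probe sets. They were chosen among called genes for their difference in these pools, which favours such a separation. Other probe sets of the same genes gave 1.97 for Me1, 1.44 for Car5b, 1.17 for Slc2a4 and 0.67 for Pdk1, all called.

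Treated pool 4 was the lowest treated pool in all 12 of these genes. The same 12 genes were lowest in rats 6, 8 and 9 when these rats were averaged from their single arrays, so the position of pool 4 appears in both kinds of array. Treated pool 4 was also the pool whose 3 rats were all in diestrus. The part of the stage in that position was not tested within the treated group. With the number of diestrus rats as a covariate, 271 probe sets were higher and 173 lower. The 12 largest rises and the 12 largest falls kept their calls in that fit, but 48 of the 126 called genes named in the text lost theirs, among them Fasn, Pparg, Cpt1a, Ucp2, Krt8 and Nsdhl. Among the control pools no single pool took that place in all 12 genes: control pool 4 was lowest in 7, pool 1 in 3 and pool 3 in 1, and pools 1 and 4 tied for Pygl.

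The largest fall was that of Cyp2e1, a cytochrome P450 that oxidises ethanol, acetone and fatty acids. Control pools read 9.14, 7.83, 8.72 and 7.89 and treated pools 6.88, 7.09, 6.92 and 6.86, so the control pools varied widely while the treated pools were nearly equal (-1.46 ± 0.24, SE; limma adjusted p = 0.00456). Wap, the whey acidic protein gene of milk, read 9.60, 9.22, 8.90 and 9.08 against 10.34, 10.64, 10.09 and 10.32, a fall of 1.15 ± 0.14 log2 (SE). Cd14, a co-receptor for bacterial lipopolysaccharide, was tight in both groups, with 10.46, 10.43, 10.42 and 10.24 against 11.31, 11.05, 11.15 and 11.26. Lcn2, an iron-scavenging protein of innate defence, stood at 12.01, 12.19, 12.24 and 11.87 against 12.83, 12.88, 12.69 and 12.88. Reg3b, an antibacterial lectin and like Lcn2 a secreted protein of host defence, was at -0.85 ± 0.16 (SE). The other falls were LOC102552398 (-1.23), Rprm (-1.05), a cell cycle inhibitor, Gp2 (-0.96), Fgg (-0.94), a fibrinogen chain, Ace (-0.79), the angiotensin-converting enzyme, S100a14 (-0.76) and Plscr1 (-0.76), an interferon-inducible membrane protein. None of the 12 falls had overlapping groups, and their choice among called genes by the difference in these pools favours that too.

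**Figure D2:**
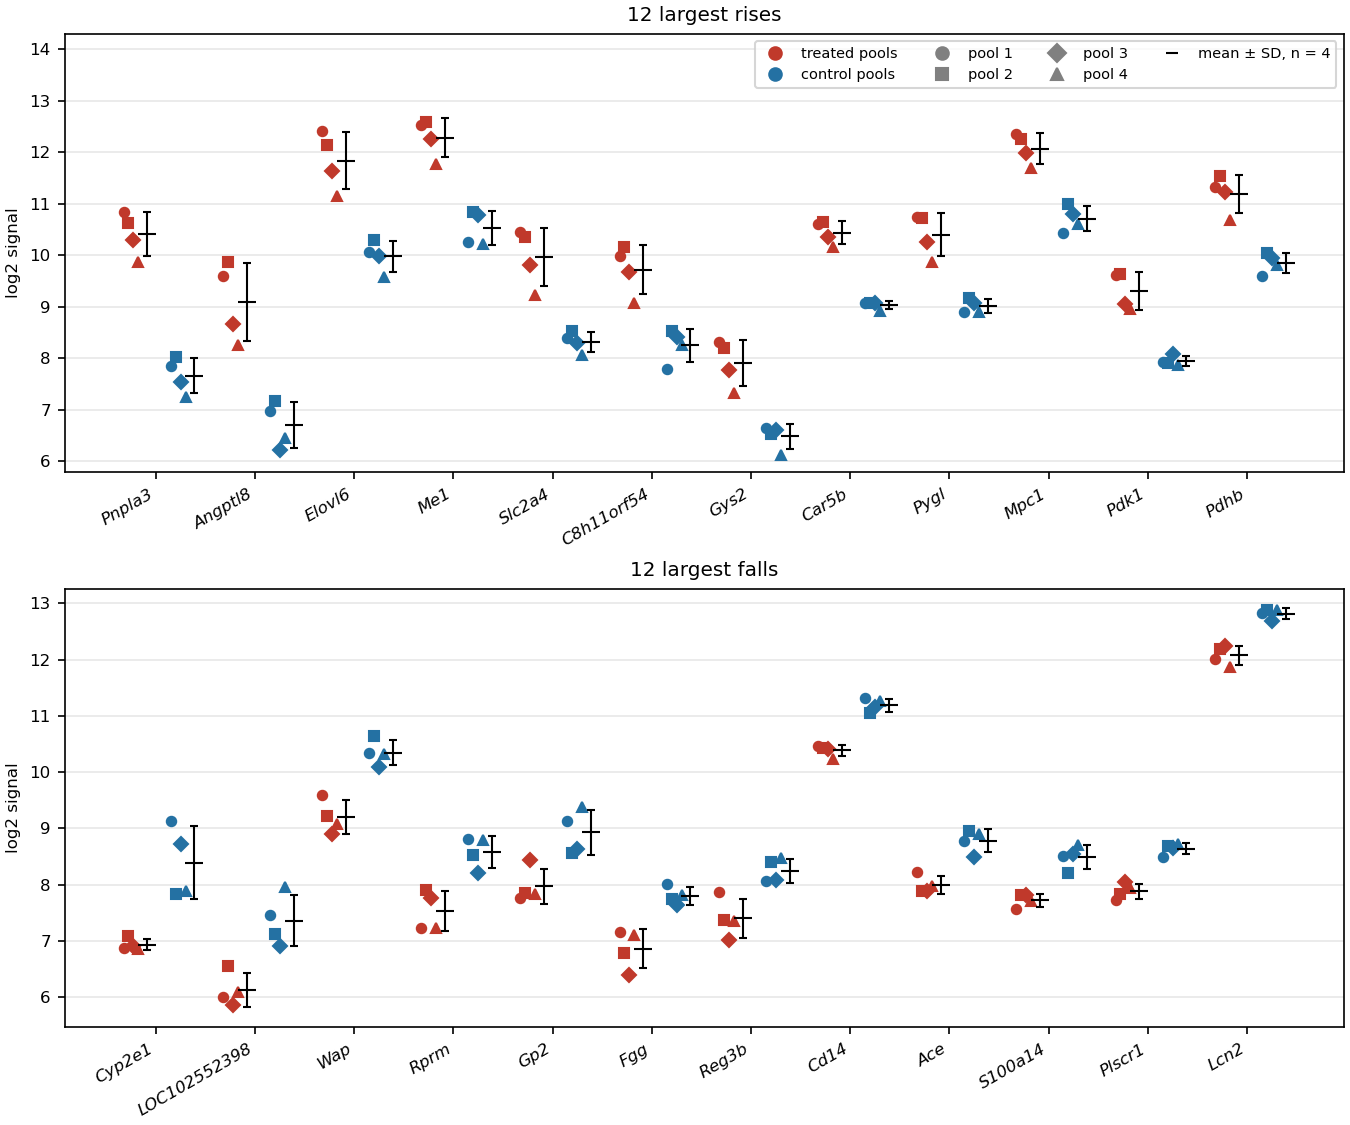
Log2 signal in each treated (red) and control (blue) pool for the 12 largest rises and the 12 largest falls among called genes. The marker shape gives the pool and black bars the mean ± SD (n = 4). Red triangles, treated pool 4, are the lowest red marker of every rise, and Cyp2e1 shows control pools from 7.83 to 9.14 over treated pools from 6.86 to 7.09.

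Genes of fatty acid and triglyceride synthesis rose in most cases. Of 25 measured genes, 18 rose and 1 fell, with a median of 0.80 log2, beside 3.75% higher and 3.38% lower among all genes. These 2 shares apply to every list below. All lists were chosen with earlier results of these data known, and this one holds Pnpla3, Angptl8, Elovl6 and Me1. Counts of list members therefore describe the lists and are not a test. The mean of the list ran from 10.45 to 10.99 in treated and from 9.77 to 10.2 in control pools. In order along the pathway, Slc25a1, which exports citrate from mitochondria, read 11.71, 11.62, 11.23 and 10.86 against 10.28, 10.62, 10.36 and 10.23. Acly, which splits citrate into acetyl-CoA, read 12.91, 12.72, 12.57 and 12.20 against 11.48, 12.03, 11.51 and 11.36. Neither gene had overlapping groups, and pool 4 was again the lowest treated pool. Acss2, which makes acetyl-CoA from acetate, rose by 1.29 ± 0.16 (SE). Acaca, the carboxylase that commits acetyl-CoA to fatty acids, rose by 0.94 ± 0.11 (SE), from 11.24, 11.18, 11.32 and 10.93 to 12.33, 12.26, 11.97 and 11.87. Acacb, the carboxylase of the mitochondrial surface, was the single fall, at -0.43 ± 0.10 (SE), and lost its call without treated pool 2 or 3 or control pool 3. Both carboxylases make malonyl-CoA, and their genes moved in opposite directions.

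Fasn, fatty acid synthase, read 13.44, 13.48, 13.23 and 13.01 against 12.70, 12.94, 12.89 and 12.43. The rise of 0.55 ± 0.13 (SE; limma adjusted p = 0.0244) lost its call without treated pool 1 or 2 or control pool 1 or 4, while another probe set of Fasn gave 1.02 (adjusted p = 0.0018). Scd, the stearoyl-CoA desaturase, rose by 0.42 ± 0.07 (SE) near the top of the array's range. Dgat2, the last enzyme of triglyceride synthesis, read 12.58, 12.55, 12.25 and 12.08 against 11.13, 11.35, 11.22 and 10.84 (1.23 ± 0.13, SE). Lpin1, a phosphatidate phosphatase of the same pathway, rose by 1.05 ± 0.18 (SE). Thrsp, the lipogenic regulator Spot14, rose by 0.78 ± 0.09 (SE), and its other probe sets by 0.92 and 1.38. Srebf1, the gene of the sterol regulatory factor SREBP-1, which drives many genes of this list, was at -0.19 ± 0.11 (SE) and did not pass (adjusted p = 0.413), and its other probe set stood at 0.02. Mlxipl, which encodes the carbohydrate-responsive factor ChREBP, another driver of such genes, read 8.86, 8.65, 8.34 and 7.84 against 7.66, 7.58, 7.36 and 7.42 (0.92 ± 0.18, SE). The groups did not overlap for Mlxipl, whereas they did for Srebf1. The part of either factor in the rises of the list was not tested. Under the replicate block 2 genes of the list fell. In leave-one-out fits, 16 of the 18 rises passed in all 8 fits. Slc25a1, Acly, Acss2, Acacb, Fasn, Lpin1, Srebf1 and Mlxipl were named after their values were seen.

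Since 18 genes of the list rose together, the 250 bases before the start of the 4 largest rises of the list with an entry in RefSeq's promoter table for GRCr8 are shown, 5′ to 3′ on the gene's strand. Capitals mark ATTGG, the CCAAT box read on the other strand. The windows are chr7:117173278-117173527 (+) for Pnpla3, chr8:28652305-28652554 (+) for Angptl8, chr8:96540245-96540494 (-) for Me1 and chr3:164464453-164464702 (+) for Acss2.
Pnpla3: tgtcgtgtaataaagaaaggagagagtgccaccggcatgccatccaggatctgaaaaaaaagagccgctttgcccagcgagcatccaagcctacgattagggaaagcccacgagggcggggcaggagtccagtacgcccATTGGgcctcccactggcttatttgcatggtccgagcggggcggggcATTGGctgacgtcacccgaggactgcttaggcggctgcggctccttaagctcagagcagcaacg
Angptl8: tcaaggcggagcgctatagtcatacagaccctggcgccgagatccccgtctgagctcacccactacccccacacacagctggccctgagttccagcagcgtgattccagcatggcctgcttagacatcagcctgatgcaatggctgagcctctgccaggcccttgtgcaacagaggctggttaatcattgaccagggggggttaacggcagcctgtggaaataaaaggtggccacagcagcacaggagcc
Me1: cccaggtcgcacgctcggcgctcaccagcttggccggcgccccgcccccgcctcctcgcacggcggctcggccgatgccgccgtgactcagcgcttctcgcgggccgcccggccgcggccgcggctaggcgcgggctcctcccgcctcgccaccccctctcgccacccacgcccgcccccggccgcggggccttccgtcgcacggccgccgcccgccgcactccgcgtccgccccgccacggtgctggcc
Acss2: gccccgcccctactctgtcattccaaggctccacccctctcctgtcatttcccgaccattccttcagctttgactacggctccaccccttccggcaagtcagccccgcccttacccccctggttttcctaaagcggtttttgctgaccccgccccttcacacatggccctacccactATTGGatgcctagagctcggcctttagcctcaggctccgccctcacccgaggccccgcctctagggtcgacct

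The CCAAT box, the letters CCAAT on either strand, occurred 2 times in the Pnpla3 window, 111 and 64 bases before the start, and 1 time in that of Acss2, 73 bases before it. Of 33469 windows of this length in the table, 34% hold it. No match was found in the 4 windows for AGGTCA, the element that RXR and its partners bind as single copies or repeats (14.1% of all windows), for its direct repeat with any 1 base between the copies (0.0508%), which contains it, for the E-box CACGTG (5.59%), for TCACNCCAC, a sterol element (0.974%), or for TATAAA (12.9%), all searched on both strands. Such a match is a description of letters, and its absence says only that they are not in this window. The table held 15 of the called members of the list.

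Genes that bring in glucose and route pyruvate followed. Of 24 measured genes, 16 rose and 1 fell, with a median of 0.65 log2. Both subunits of the mitochondrial pyruvate carrier rose, Mpc1 from 10.43, 10.99, 10.80 and 10.61 to 12.35, 12.26, 11.99 and 11.69 and Mpc2 by 1.06 ± 0.15 (SE). Of the pyruvate dehydrogenase complex, which turns pyruvate into acetyl-CoA, Pdhb read 11.33, 11.54, 11.22 and 10.68 against 9.59, 10.04, 9.95 and 9.81. Its partners Pdhx and Pdha1 rose by 1.21 ± 0.15 and 0.82 ± 0.12 (SE), and Dld by 0.68 ± 0.12 (SE). Pdk1, a kinase that switches this complex off, rose as well, from 7.93, 7.91, 8.08 and 7.88 to 9.62, 9.64, 9.05 and 8.95. The complex and its inhibitor were thus higher in the same pools. Pc, pyruvate carboxylase, which refills the citrate pool, rose by 0.93 ± 0.17 (SE). Glycogen genes rose on both sides, with Gys2, glycogen synthase, at 8.31, 8.20, 7.77 and 7.33 against 6.65, 6.54, 6.62 and 6.13, Gbe1, the branching enzyme, up by 1.25 ± 0.17 (SE) and Pygl, the phosphorylase, up by 1.38 ± 0.17 (SE). Hk1, the ubiquitous hexokinase, was the 1 gene that fell (-0.42 ± 0.09, SE), and it lost its call without control pool 1 or 4. Hk2, the hexokinase of insulin-sensitive tissue, rose by 0.52 ± 0.13 (SE), a call that remained in the leave-one-out fits only without treated pool 4. Mpc2, Pdha1, Dld, Pc, Gbe1, Hk1 and Hk2 were named after their values were seen.

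Glycolysis itself had fewer calls. Of 16 genes, 5 rose and 1 fell, and the median was 0.31 log2 (0.305). Aldoa, the main aldolase of muscle and fat, read 13.06, 12.95, 12.76 and 12.58 against 12.07, 12.26, 12.18 and 12.07. Aldoc, another aldolase, went the other way, at 8.96, 8.96, 8.98 and 9.06 against 9.37, 9.51, 9.72 and 9.63. The paralogs differed in direction without overlap between groups (0.69 ± 0.10 and -0.57 ± 0.08, SE). Tpi1 rose by 0.43 ± 0.09 (SE). The other 3 rises rested on single pools. Gpi (0.31) lost its call without treated pool 1 or 2 or control pool 3, Pgam1 (0.36) without treated pool 2 or 3 or control pool 1 or 3, and Pgk1 (0.33, named after its values were seen) in all leave-one-out fits but that without control pool 4. Other probe sets of Pgk1 gave -0.01 and 0.35.

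In the tricarboxylic acid cycle 12 of 18 genes rose, none fell and the median was 0.37 log2. Cs, citrate synthase, read 11.35, 11.17, 10.93 and 10.84 against 9.99, 10.15, 10.41 and 10.53, a rise of 0.80 ± 0.13 (SE). On this probe set the treated pools fell from pool 1 to pool 4 while the control values went the other way. Pools 4 were thus close (10.84 against 10.53). Other probe sets of Cs gave 0.73 and 0.555, both called. Their control pools had no such steady rise, at 9.02, 8.80, 8.91 and 9.09 and at 9.04, 9.46, 9.13 and 9.12. Sdha and Sdhc of succinate dehydrogenase rose by 0.57 ± 0.09 and 0.46 ± 0.07 (SE), Idh3g by 0.47 ± 0.08 (SE) and Ogdh, oxoglutarate dehydrogenase, by 0.46 ± 0.08 (SE; 0.455). Of the 12, 9 passed in all 8 leave-one-out fits.

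The respiratory chain and ATP synthase gave 20 rises and no fall among 28 genes, with a smaller median of 0.30 log2. Cyc1, cytochrome c1 of complex III, read 11.33, 11.37, 11.27 and 11.12 against 10.45, 10.69, 10.75 and 10.72. Uqcrc1, of the same complex, had an even rise of 0.42 ± 0.06 (SE), and Uqcrfs1, its iron-sulfur protein, rose by 0.51 ± 0.08 (SE). Ndufs1, the largest subunit of complex I, read 9.08, 9.23, 8.97 and 8.75 against 8.04, 8.34, 8.29 and 8.44 (0.73 ± 0.11, SE), and Ndufb5 of complex I rose by 0.37 ± 0.07 (SE). In 21 genes all treated pools lay above all control pools, against 5.37% of all genes. The count of calls was fragile: it was 5 without treated pool 2, 9 without control pool 3, 11 without treated pool 1, 13 without treated pool 3 or control pool 1, and 5 genes passed in all 8 fits. With diestrus rats as a covariate it was 4. Genes for mitochondrial ribosomes and protein import, which serve the same organelle, gave 5 rises among 30 and no fall (median 0.10). They were Mrps7 (0.78 ± 0.11, SE), Timm8b (0.66 ± 0.07, SE), Mrpl12 (0.46), Timm10 (0.33) and Timm17a (0.32). The last lost its call in 6 of the leave-one-out fits, all but those without treated pool 4 and control pool 2.

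Fatty acid oxidation and PPAR targets split in both directions. Of 28 genes, 8 rose and 4 fell, and the median was 0.14 log2. Of the rises 5 were mitochondrial proteins of beta-oxidation and its electron transfer. Etfdh, which passes electrons to the respiratory chain, read 8.49, 8.38, 8.36 and 8.35 against 7.57, 7.77, 7.84 and 7.91, and Etfa rose by 0.52 ± 0.09 (SE). Decr1, needed for unsaturated fatty acids, rose by 0.55 ± 0.07 (SE; 0.545), Hadh by 0.52 ± 0.09 (SE; 0.515) and Hadhb by 0.47 ± 0.09 (SE; 0.465). Another probe set of Hadh stood at 0.04 and did not pass. The carnitine palmitoyltransferases Cpt1b, of muscle and fat (0.72 ± 0.15, SE), and Cpt2 (0.44 ± 0.12, SE) rose too, as did Pex11a of peroxisomes (0.36 ± 0.07, SE). Another probe set of Pex11a stood at 0.16 and did not pass. Cpt2 lost its call in 6 leave-one-out fits and Pex11a without treated pool 2 or control pool 3, while Cpt1b lost its own without treated pool 2. The liver-type paralog of Cpt1b went down: Cpt1a, which admits long-chain fatty acids to mitochondria, read 8.33, 8.73, 8.85 and 8.95 against 9.06, 9.46, 9.74 and 9.50 (-0.72 ± 0.15, SE), and its other probe set gave -0.39 (adjusted p = 0.0341). Ucp2, an uncoupling protein, fell by 0.57 ± 0.11 (SE), Acaa2, a mitochondrial thiolase, by 0.36 ± 0.07 (SE) and Ehhadh, a peroxisomal PPAR target, by 0.34 ± 0.09 (SE). The call of Ehhadh was lost without any of treated pools 1, 2 and 3 and control pools 1 and 3. With 5 rises without treated pool 2 and 6 falls without treated pool 4, the counts were unsteady. Cpt1a, Cpt1b, Cpt2, Pex11a, Ucp2, Acaa2 and Ehhadh were named after their values were seen.

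Adipocyte genes rose in the majority, with 11 of 20 higher, 2 lower and a median of 0.49 log2. Among these rises Slc2a4, Thrsp and Lpl also count in other lists. Lep, the hormone leptin, read 7.61, 8.03, 7.55 and 7.64 against 7.02, 6.65, 6.78 and 6.79. Aqp7, the glycerol channel of fat cells, read 10.76, 10.76, 10.34 and 10.49 against 9.43, 9.44, 9.54 and 9.38 (1.14 ± 0.10, SE), and Gpd1, which makes glycerol phosphate for triglycerides, rose by 1.10 ± 0.14 (SE). The lipases of stored fat, Pnpla2 (0.57 ± 0.11, SE) and Lipe (0.51 ± 0.10, SE), rose as well, and so did Cebpa, a driver of fat cell formation (0.47 ± 0.12, SE), though Lipe lost its call without treated pool 2 and Cebpa in 6 leave-one-out fits. Against these, Cfd, the secreted protein adipsin, fell from 13.40, 13.28, 13.33 and 13.26 to 12.69, 12.77, 12.57 and 12.42. The second fall was Adrb3, the beta-3 adrenergic receptor that starts fat breakdown (-0.46 ± 0.12, SE). Pnpla2, Lipe, Cebpa and Adrb3 were named after their values were seen. For Adrb3 the adjusted p was 0.0498 and passed in the leave-one-out fits only without treated pool 1. Cfd and Lep, both secreted by fat cells, thus moved in opposite directions without overlap between groups. In the brown fat list 0 of 7 genes were called by limma, and its mean lay between 6.30 and 6.54 in treated and 6.20 and 6.47 in control pools. Pck1, the enzyme of glyceroneogenesis, named after its values were seen, was at -0.70 ± 0.25 (SE) and did not pass (adjusted p = 0.138), but without treated pool 4 its difference was -1.01 (adjusted p = 0.00129).

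**Figure D3:**
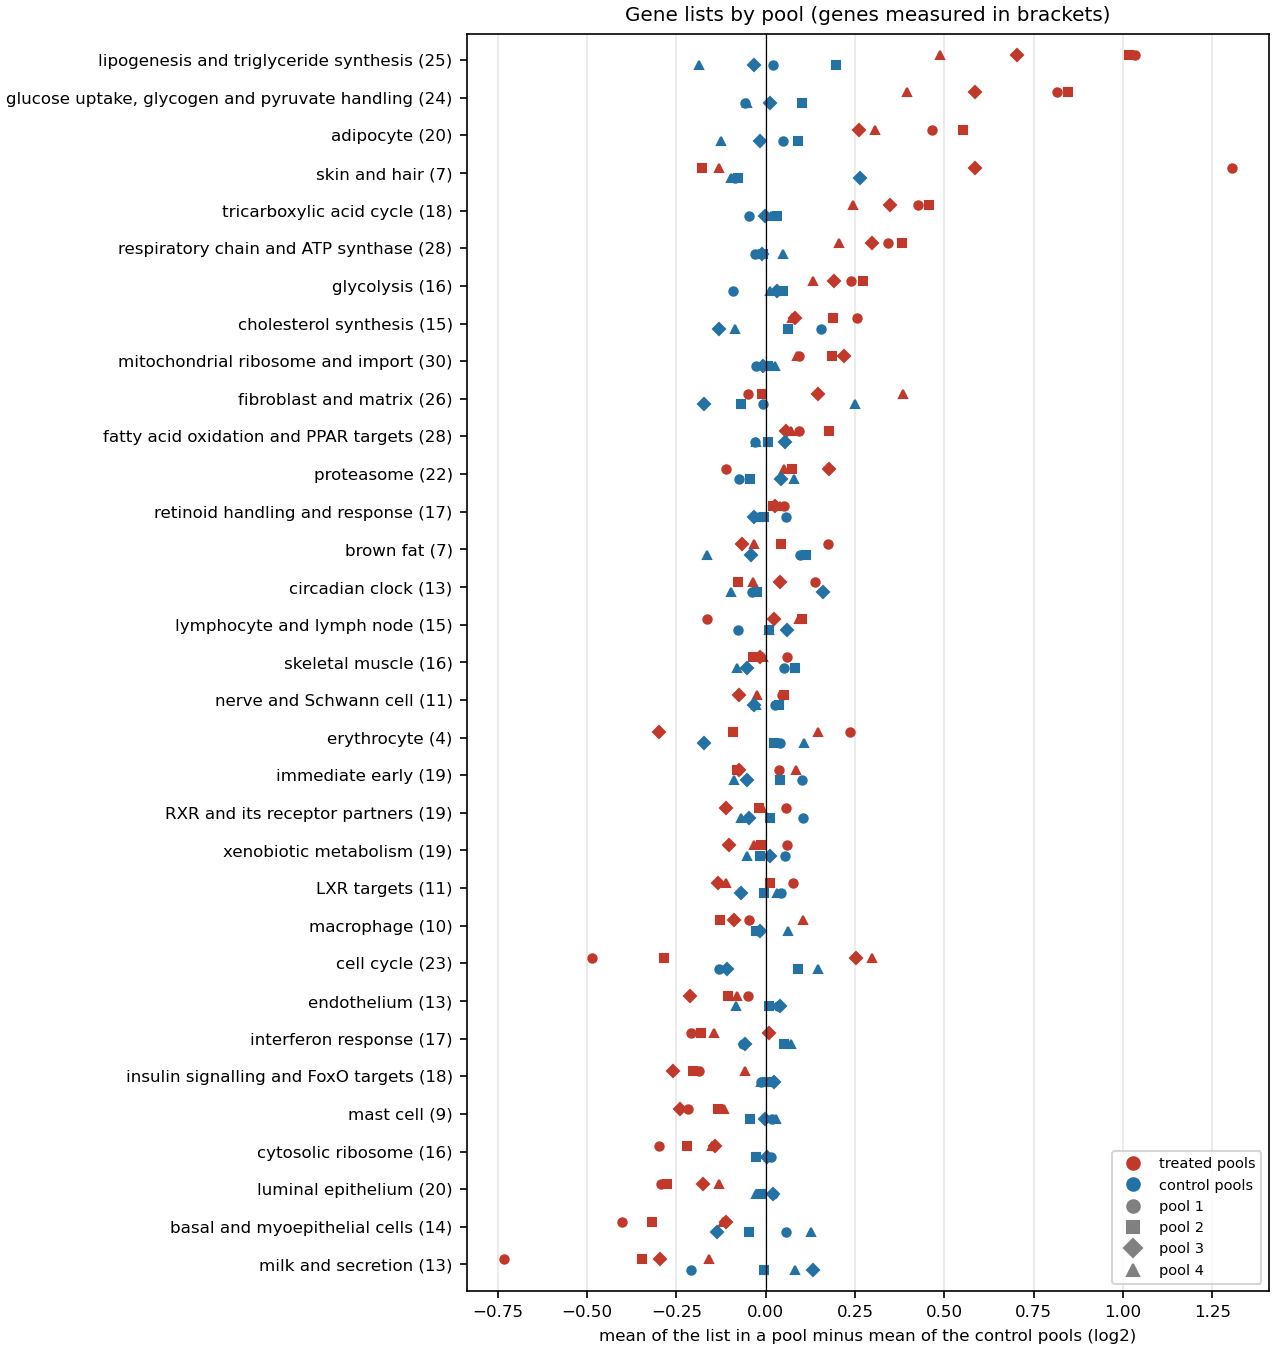
For each gene list, the x axis gives the mean of the list in a pool minus the mean over the 4 control pools, in log2, with treated pools in red, control pools in blue and the shape giving the pool. Lipogenesis has treated pools from 10.45 to 10.99 against 9.77 to 10.2 (before subtraction), the lowest point is treated pool 1 of the milk list, and skin list means range from 6.69 to 8.17 with treated pool 1 highest.

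Among the receptors, the genes of RXR did not pass. Rxra read 7.48, 7.47, 7.35 and 7.49 against 7.70, 7.36, 7.40 and 7.45 (-0.03 ± 0.08, SE), Rxrb was at -0.13 ± 0.08 and Rxrg at 0.04 ± 0.12 (SE). The sign of Rxra turns to 0.01 with centred arrays (0.005) or quantile normalization, so it has no settled direction. Of 19 genes of RXR and its partners, 1 rose and 1 fell, beside 3.75% higher and 3.38% lower among all genes. These counts are near those shares, and the median was -0.04. The rise was Pparg, the master regulator of fat cells, from 8.90, 8.11, 8.52 and 8.54 to 9.56, 9.29, 9.16 and 9.08 (0.76 ± 0.15, SE; 0.755). The fall was Nr1h2, which encodes LXR beta, at -0.30 ± 0.08 (SE; adjusted p = 0.0413). It was lost with centred arrays, in all leave-one-out fits but those without treated pool 4 and control pool 2, and on its other probe set (-0.03). Nr1h3, encoding LXR alpha, read 7.10, 6.94, 6.67 and 6.74 against 7.27, 7.14, 7.22 and 7.05 and passed only under the replicate block (-0.31, adjusted p = 0.0343, beside 0.0853 without it), with array weights, with the technical score and without treated pool 1.

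Of 17 retinoid genes 2 rose, 1 fell and the others did not pass. Among all genes 3.75% were higher and 3.38% lower, which applies to each list of this paragraph. Rbp4, the retinol carrier that fat tissue secretes, read 11.93, 12.04, 11.73 and 11.96 against 10.87, 11.22, 10.76 and 10.73 (1.02 ± 0.11, SE), and Rarres2, the adipokine chemerin, rose by 0.43 ± 0.07 (SE; 0.435). Rdh10, which oxidises retinol on the way to retinoic acid, fell by 0.60 ± 0.13 (SE). It lost its call without treated pool 2 or control pool 4, and its other probe set stood at 0.10. The block added 1 fall to this list, to the receptor list and to the LXR targets. Of 11 LXR targets, Scd and Lpl, the lipoprotein lipase gene (0.52 ± 0.09, SE), rose and none fell, while the median was -0.17. Both are also in the lists of fat synthesis or fat cells. Of 15 genes of cholesterol synthesis 1 rose, Nsdhl, which removes sterol methyl groups, from 7.22, 7.42, 7.25 and 7.12 to 8.48, 8.14, 7.82 and 7.68 (3 under the block). Dhcr7 (0.28) and Pmvk (-0.26) did not pass in the main test, though Dhcr7 did without treated pool 4 and with array weights, and Pmvk without control pool 4, with array weights and with the technical score. In the insulin and FoxO list 1 of 18 genes rose and 2 fell. Akt2, the kinase of insulin-driven glucose uptake, was at 0.26 ± 0.07 (SE), Sesn1, a FoxO target, at -0.38 ± 0.07 and Txnip, a brake on glucose uptake, at -0.46 ± 0.11 (SE; -0.455). Sesn1 kept its call in all 8 leave-one-out fits, whereas Akt2 kept it only without treated pool 3 and Txnip only without treated pool 4 or control pool 1. Other probe sets of Akt2 stood at 0.24 and 0.25 and did not pass.

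A part of the epithelial genes fell. In the luminal list 6 of 20 genes fell, beside 3.38% of all genes. None rose and the median was -0.26 log2 (10 falls under the replicate block). Kit, a receptor of luminal progenitors, read 8.28, 8.52, 8.32 and 8.31 against 9.03, 8.91, 8.90 and 9.12 (-0.63 ± 0.08, SE). Epcam, the general epithelial adhesion protein, read 11.25, 11.35, 11.44 and 11.49 against 11.88, 11.77, 11.91 and 11.83. The luminal keratin Krt19 read 10.77, 10.97, 11.26 and 11.03 against 11.60, 11.54, 11.55 and 11.56, so its control pools were almost equal while treated pool 1 stood lowest. With centred arrays 4 genes of the list fell. Krt8 was at -0.55 ± 0.12 (SE; -0.545), Cldn4 at -0.39 ± 0.09 and Gata3 at -0.34 ± 0.09 (SE), the last named after its values were seen. Kit, Epcam and Krt19 passed in all 8 leave-one-out fits, the other 3 did not.

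In the basal and myoepithelial list 3 of 14 genes fell and 1 rose, with a median of -0.36 log2 (6 falls under the block). Among all genes 3.38% were lower and 3.75% higher. Oxtr, the oxytocin receptor of milk ejection, was the rise, from 7.76, 7.39, 7.65 and 7.63 to 8.25, 8.80, 8.36 and 8.29. The falls were Tp63, which maintains basal cells (-0.56 ± 0.13, SE), and the contractile genes Mylk (-0.38 ± 0.09, SE; -0.375) and Myh11 (-0.46 ± 0.12, SE; -0.455). Treated and control pools overlapped for Tp63 and Myh11, and another probe set of Tp63 stood at -0.02. The number of falls was 0 without treated pool 1 or 2 or control pool 1, 2 or 4, and 5 without control pool 3.

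Milk genes fell in 7 of 13 cases, Wap among them, with none higher and a median of -0.41 log2. Lalba, which with galactosyltransferase makes lactose, read 12.66, 12.39, 12.20 and 11.96 against 13.02, 12.85, 13.05 and 13.22. Mfge8, a milk fat globule protein, read 12.03, 12.13, 12.23 and 12.29 against 12.56, 12.75, 12.69 and 12.67. Csn3, kappa casein, was at -0.34 ± 0.07 (SE), Cel at -0.31 ± 0.07 (SE), and Xdh, needed for milk fat secretion, at -0.42 ± 0.10 (SE). Plin2, the lipid droplet coat protein, was at -0.46 ± 0.10 (SE; limma adjusted p = 0.0221) on its brighter probe set, while its other probe set was at 0.76 ± 0.10 (SE; adjusted p = 0.00114). Both passed with opposite signs, so the gene has no settled direction. Wap, Mfge8 and Lalba passed in all 8 leave-one-out fits, the other 4 did not. Without treated pool 2 the list had 3 falls, and without both pools of rats 2, 3 and 5 it had 2. Xdh and Plin2 were named after their values were seen. List means ran from 8.81 to 8.98 in treated and 9.08 to 9.13 in control pools for luminal genes, and from 9.76 to 10.33 and 10.28 to 10.62 for milk genes. The part of the amount of epithelium in these falls was not tested.

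The lists of other cell types in this paragraph held 1 to 3 called genes each, beside 3.75% higher and 3.38% lower among all genes. In the short endothelial and nerve lists the called genes were a larger share than among all genes. Among 26 genes of fibroblasts and matrix 1 rose, Lox, which cross-links collagen (0.49 ± 0.13, SE), and 1 fell, Fmod, fibromodulin (-0.55 ± 0.13, SE), neither in all leave-one-out fits (3 rises under the block). Another probe set of Lox stood at 0.43 and did not pass. Of 13 endothelial genes 2 fell, Vwf, the von Willebrand factor, at -0.45 ± 0.07 (SE) and Ramp2 at -0.26 ± 0.06 (SE), the second lost in 7 of 8 leave-one-out fits. Cd14 was the 1 macrophage gene of 10 that fell, while Csf1r, the macrophage growth factor receptor, was at 0.15 ± 0.07 and Lyz2, lysozyme, at 0.11 ± 0.07 (SE), neither called. In the nerve list S100b, a calcium-binding protein of Schwann and fat cells, read 11.81, 11.78, 11.55 and 11.64 against 10.32, 10.54, 10.69 and 10.56 (1.17 ± 0.09, SE; limma adjusted p = 6.76e-05). Sox10 and Cnp, genes of Schwann cells, fell by 0.42 ± 0.07 (SE; -0.425) and 0.61 ± 0.10 (SE). The 3 called members of 11 therefore split, and Sox10 is also expressed by mammary epithelium. In the mast cell list the single fall of 9 genes was Kit, shared with the luminal list (2 under the block).

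In the lymphocyte (15 genes), skeletal muscle (16), erythrocyte (4), cell cycle (23) and skin (7) lists limma called 0 genes. At an unadjusted p under 0.05, over all probe sets, 3021 passed. The cell cycle list still differed between pools, with treated means from 7.31 to 8.09 and control means from 7.66 to 7.94. Of 17 interferon genes Plscr1 was the 1 that fell, of 13 clock genes Bhlhe41 (-0.40 ± 0.07, SE), and of 19 immediate early genes Fos (-0.68 ± 0.18, SE; adjusted p = 0.0498). Among all genes 3.38% were lower. Fos was called in just 1 leave-one-out fit, that without treated pool 1, and its other probe set stood at 0.02. The block gave 2 falls in the interferon list, 2 rises and 2 falls in the immediate early list and 1 fall in the skin list. In the xenobiotic list 2 of 19 genes rose, Gsta1 (10.80, 10.88, 10.82 and 10.80 against 10.18, 10.11, 10.21 and 10.27) and Gstm1 (0.37 ± 0.08, SE), both glutathione transferases, of which Gstm1 lost its call without control pool 3, beside the fall of Cyp2e1 (2 falls under the block). Of 22 proteasome genes 1 rose, Psmd8 (0.39 ± 0.09, SE), beside 3.75% of all genes, and it lost its call without treated pool 2 or 3 or control pool 1.

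Cytosolic ribosomal protein genes had small differences. Of 16 genes 4 fell, Rpl4, Rps15, Rplp0 and Rps3, between -0.33 and -0.28 (-0.285), and the median was -0.21. In 10 of the 16 all treated pools lay below all control pools, beside 8.13% of all genes. Their mean was 12.1 to 12.3 in treated and 12.4 in each control pool. With each array centred on its median 2 fell, with quantile normalization 1, and 1 or 2 without treated pool 1 or 2 or control pool 1, 3 or 4. The treated arrays had a median shift of -0.035 over all probe sets.

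The spread between pools of a group was largest for Glycam1, Krt10, Csn2, Krt1, Mmp3 and Mcm6, and none of these 6 genes was called. Krt10, a keratin of the outer skin, read 9.68, 5.19, 8.04 and 5.35 in treated pools and 5.26, 5.12, 6.73 and 5.44 in control pools. Each of the 3 raised pools held 1 bright rat. Treated rat 10 read 11.12 while its pool mates read 5.36 and 5.34, treated rat 3 read 9.10, and control rat 5 read 8.22. Its difference of 1.43 ± 0.83 (SE) was not called. Krt1, its partner keratin, was raised in the same 3 pools, at 10.08, 7.99 and 7.37 over 6.76 to 7.05 in the other 5. The skin list as a whole had means of 8.17 in treated pool 1, 7.45 in treated pool 3, 7.13 in control pool 3 and 6.69 to 6.79 elsewhere.

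Glycam1, a mucin of milk and of lymph node vessels, read 7.48, 12.23, 12.49 and 11.86 against 8.87, 9.88, 11.83 and 11.81 (0.42 ± 1.005, SE). Treated pool 1 was low, and so were all 3 of its rats (7.70, 7.39 and 7.88). In treated pool 2, by contrast, rats at 12.39 and 12.69 were mixed with one at 5.96, and the pool still read 12.23. Csn2, beta casein, read 11.66 in treated pool 4, where rat 9 alone had 12.56 and rat 6 had 6.28. Its difference was -0.47 ± 0.61 (SE; -0.465). Mmp3, stromelysin, read 6.07 in treated pool 3 and 8.49 in treated pool 1 (-0.41 ± 0.52, SE), and Mcm6, a replication helicase subunit, 6.04 in treated pool 1 and 8.25 in pool 3 (-0.19 ± 0.39, SE). Treated pool 1 in Krt10 and treated pool 4 in Csn2 thus stood well above the middle one of their 3 rats.

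**Figure D4:**
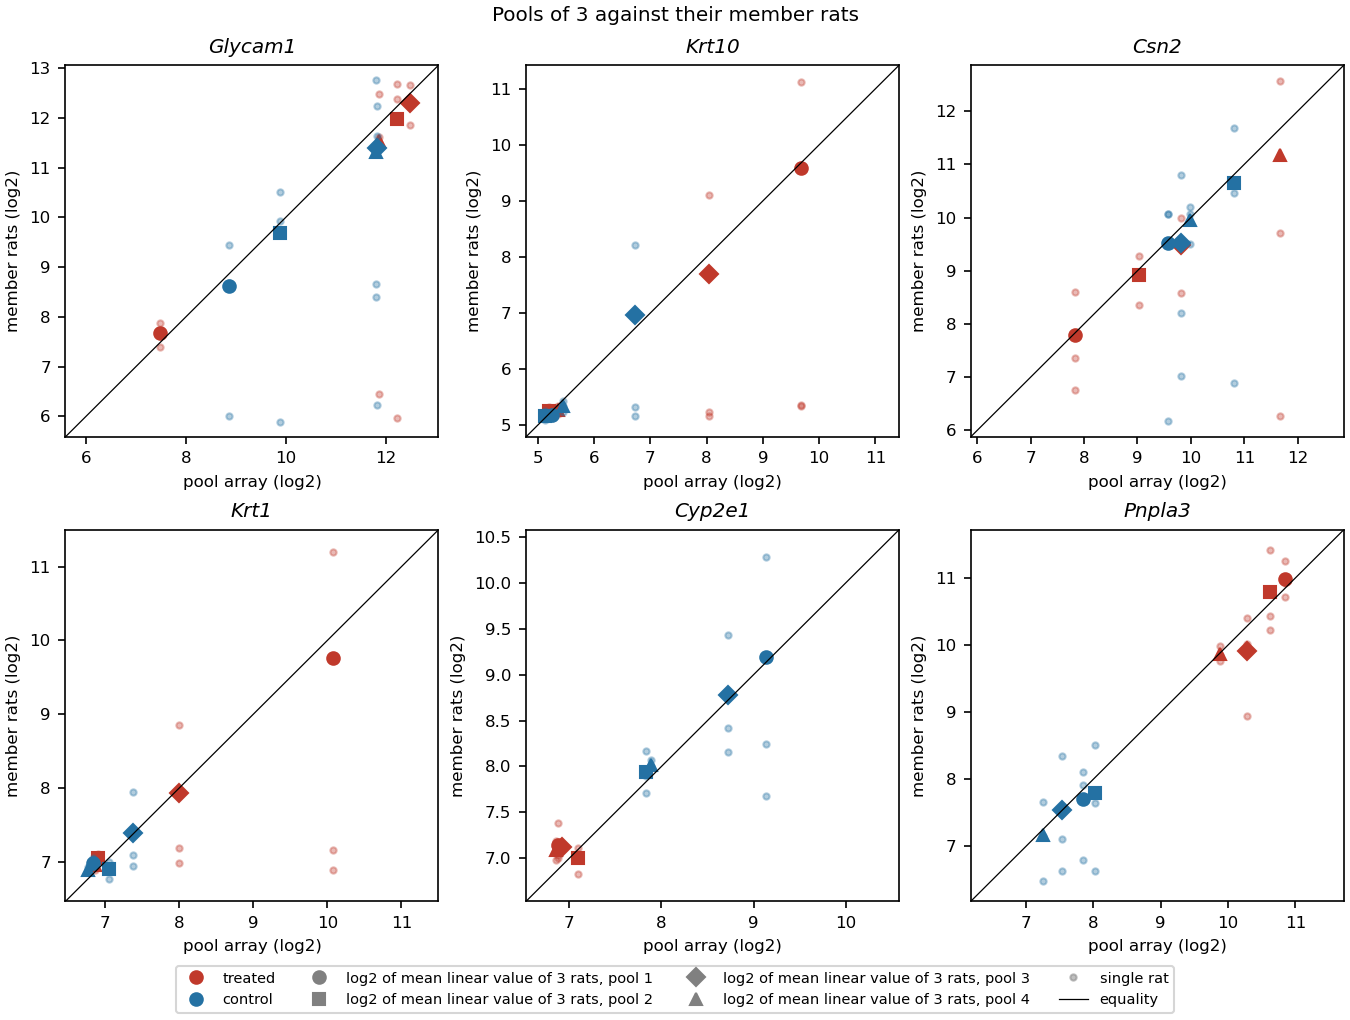
Log2 signal of each pool array (x axis) against the log2 of the linear average of the 3 rats in it (large markers, y axis) and each single rat (small dots), with the line of equality, red for treated and blue for control. Large markers follow the line while single rats scatter, as in Krt10, where treated rat 10 at 11.12 sits above a pool that read 9.68.

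The members of each pool were averaged from their single arrays on the linear scale, and the log2 of that average was set against the pool. Over the 24 largest rises and falls, 192 pool values in all, the median distance was 0.12 log2 and the largest 0.46 (0.457). Over the 6 genes of largest spread it was 0.16 and 0.53 (0.5255) over 48 values. The difference between pool and members was then compared between treated and control pools. Of 15866 probe sets limma called 0 (0%), with 488 at an unadjusted p under 0.05. That is below the share of 0.05 that chance alone would give. The smallest p belonged to Fgfr3 (-0.32 ± 0.08, SE; -0.315), Pygm (-0.28), Zrsr2 (-0.27) and Bpgm (-0.28), each with an adjusted p of 0.9999. Other probe sets of Pygm stood at 0.03 and -0.03. The absence of calls does not show that pools and members gave equal differences.

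The spread within groups was smaller between pools than between rats in all 24 of the largest rises and falls, with a median SD of 0.30 against 0.51. Over all probe sets it was smaller in 59.3%, with medians of 0.112 and 0.117. The 24 genes had to be called in these pools and were then chosen for their difference. A call favours a small spread between pools, so the spread of these genes cannot show what pooling does. Of the genes with the largest spread, Krt10 had an SD of 1.627 between pools against 1.499 between rats and Krt1 1.08 against 0.93, so in both it was wider between pools. The median SE of the treatment difference was nevertheless 0.0785 log2 in 4 against 4 pools of 3, 0.0628 in 6 against 6 pools of 2 and 0.0474 in 12 against 12 rats.

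The treatment differences of the designs stand side by side below, and since the same rats enter each design they are not independent of each other. Pnpla3 gave 2.75 ± 0.20 in pools of 3, 2.82 ± 0.26 in pools of 2, 2.91 ± 0.27 in single rats (SE) and 3.005 between the pools of 12, which have no error. For Elovl6 these were 1.86 ± 0.23, 1.94 ± 0.22, 2.18 ± 0.29 and 2.04 (2.045). Wap gave -1.15 ± 0.14, -1.22 ± 0.21, -0.92 ± 0.24 and -1.09 (-1.095), and Fgg -0.94 ± 0.15, -0.72 ± 0.26, -0.68 ± 0.23 and -1.02 (-1.0175). Of the 12 rises 11 were smaller in pools of 3 than in single rats, with ratios from 0.851 to 1.05. None of the 12 falls was smaller, with ratios from 1.03 (1.035) to 1.39. The measures are not alike: a pool mixes its rats on the linear scale, whereas the single-rat difference compares means of log2 values. The genes were chosen among called ones for their size in the pools of 3, which favours larger values there. No test of these ratios was made beyond the comparison of pools with members above.

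**Figure D5:**
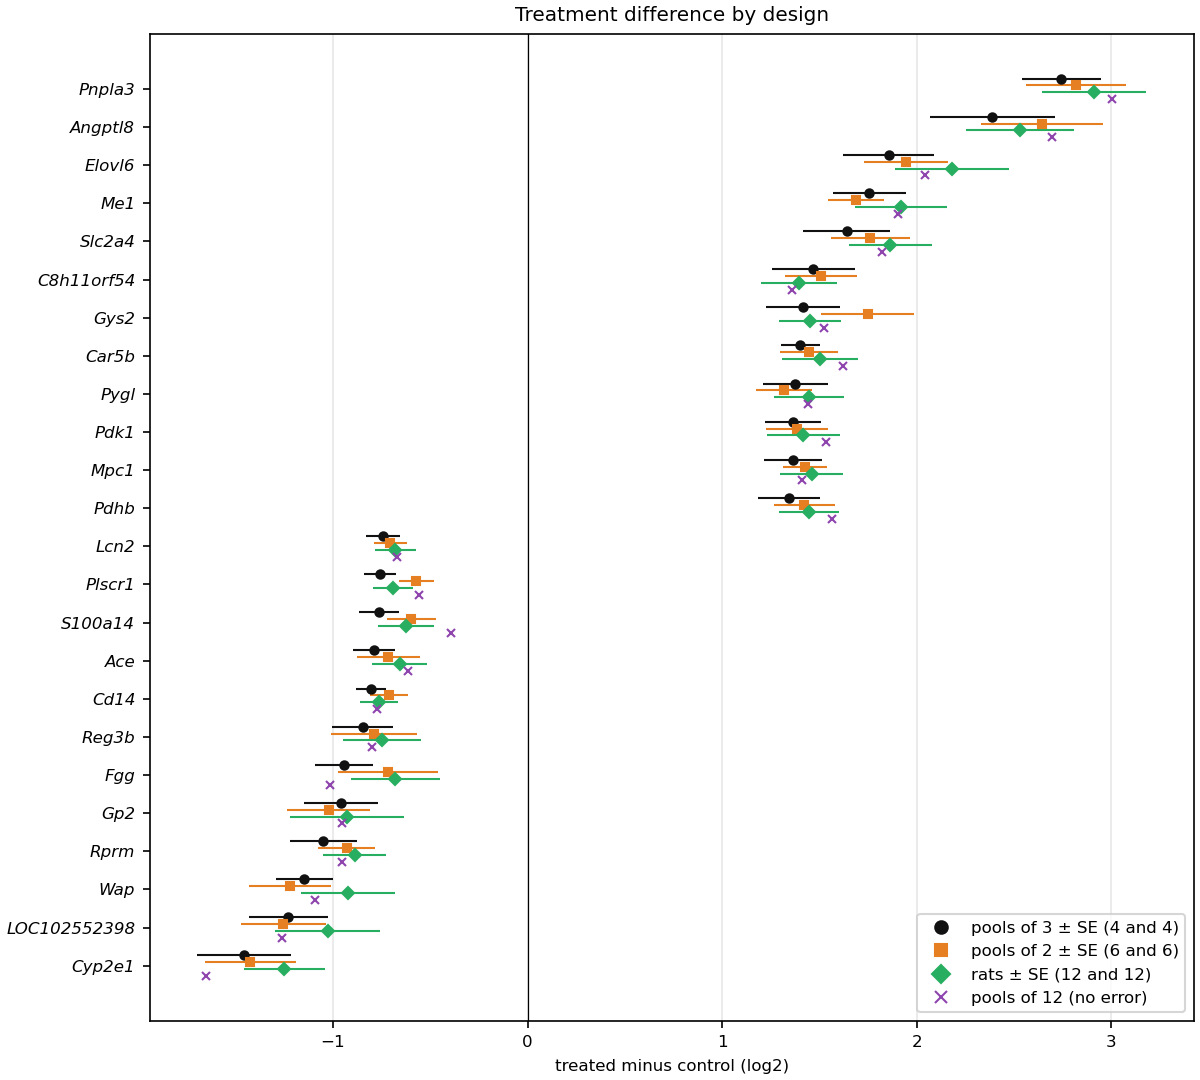
Treated minus control difference in log2 (x axis) for the 12 largest rises and 12 largest falls, in pools of 3, pools of 2 and single rats with SE bars, and in the pools of 12 without error. Most bars of a gene overlap, with Pnpla3 between 2.75 and 3.005 and Cyp2e1 between -1.25 in single rats and -1.66 in the pools of 12.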

How the data were processed

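Each array measured 15923 probe sets of the rat in 1 target mixture. The deposited values run from 4.12 to 14.08 and are taken as log2 signal: they exceed 11.1, the natural log of the largest 16-bit intensity, and stay below 16. How the authors normalized them, and with which software, is not given in the sources used here. After 57 control probe sets were left out, limma 3.58.1 in R 4.3.3 (lmFit and eBayes) was fitted to 15866 probe sets of 4 treated and 4 control pools, with no low-value filter, Benjamini-Hochberg adjustment and a threshold of 0.05. Single rats, pools of 2, and pool minus members were fitted the same way, and each printed SE and adjusted p comes from these fits.

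Probe sets took 1 symbol in 12783 cases, several in 312 and none in 2771 from the platform table, and 12748 were matched to current symbols of RefSeq GRCr8 by Entrez ID. Each gene used the probe set with the highest mean. Named are the 12 largest rises and the 12 largest falls among called genes. Krt10, at 1.43 and not called, was therefore not among these rises. Also named are up to 5 called members of each list with the smallest p (up to 3 where fewer were called). The RXR genes, the 6 genes of largest spread and the 4 smallest p for pool against members follow, besides those said to be chosen later. The members and the 33 lists were chosen with earlier results of these data known. The fit was tested on simulated data, and figures were drawn with matplotlib 3.10.9.

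Treated and control pools were matched by the rat numbers in their titles: pools 3 and 4 share all 3 numbers and pools 1 and 2 share 2, though the rats differ. Deviations from the group means correlated over probe sets at 0.31, 0.15, 0.17 and 0.23 in the 4 matched pairs, and between -0.46 and 0.45 in other pairs, so a fit with the pair as replicate block is given where it changes a call. Alternatives were array centring, quantile normalization, a filter on dim probe sets, other variance settings, other thresholds, covariates and leaving out pools.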

Additional observations from a re-analysis of the deposited data

Results flagged for a closer look

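Among 148 named genes in both groups, 296 groups of 4 pools in all, 17 held 1 pool whose gap to the nearest other pool exceeded Dixon's critical share of the group's range for 4 values. Chance flags about 1 in 20 groups, so the number is close to that. The causes were not tested.

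In treated pool 1, Glycam1 was low at 7.48, with the next pool at 11.86, Mylk was low at 10.76 and Plin2 low at 11.48. Treated pool 2 was high for Kit at 8.52. Treated pool 3 was high for Gp2 at 8.44, against 7.85 or less in the others, high for Bpgm at 8.12, and low for Rxra at 7.35. For Pmvk treated pool 3 read 8.02 and the other pools 8.01, a gap of one rounding step. Treated pool 4 was high for Lyz2 at 10.70.

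In control pool 1, Sdha was low at 9.96 and Fos high at 9.30. Control pool 3 was low for Akt2 at 8.84, for Csn3 at 12.92 and for Cnp at 10.36, the last with the next pool at 10.80. Control pool 4 was low for Car5b at 8.92, where the others all read 9.08, and for Acss2 at 9.64, and it was high for Timm8b at 9.29. Among the called genes, the flagged pools of Kit, Gp2, Csn3, Cnp and Timm8b lay on the side of the other group. The groups did not overlap for Kit, Gp2 and Timm8b.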

How the results depend on the processing

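Of 126 called genes named in the text none turned sign under any alternative run, and 126 kept their call with the replicate block, 126 with the technical score, 115 with centred arrays, 113 with quantile normalization and 91 to 117 with 1 pool left out. Among the named genes the block changed no other call than that of Nr1h3. It gave 7 rises in glycolysis, 13 in the tricarboxylic acid cycle, 19 in lipogenesis and 3 in the xenobiotic list, and 5 falls in fatty acid oxidation, 8 in milk and 5 in cytosolic ribosomes, besides the counts given beside the lists. Against 990 called probe sets (518 higher, 472 lower), centring gave 300 lower, array weights 1561 (868 lower), an adjusted p of 0.01 gave 378 (255 higher, 123 lower), a minimum of 0.5 log2 gave 326 (242 higher, 84 lower), diestrus rats as covariate 444 (271 higher, 173 lower), the replicate block 763 lower, the technical score 1517 (861 lower) and leaving out both pools of rats 2, 3 and 5 gave 460 (281 higher, 179 lower). With 1 pool left out the total ran from 503 to 1020, higher from 299 to 548 and lower from 204 to 472. The comparison of pools with their members gave 0 calls in limma under each alternative run for it. Its main fit had 488 at an unadjusted p under 0.05, below the share that chance alone would give. Uncalled genes turned sign as follows: Rxra to 0.005 with centring, 0.0056 with quantile normalization, 0.0025 without treated pool 3 and 0.0442 without control pool 1. Csn2 turned to 0.5185 and Mcm6 to 0.0755 with the diestrus covariate, and without treated pool 1 to 0.1158 and 0.2658. Mmp3 turned to 0.2433 without both pools of rats 2, 3 and 5. Rxrg turned to -0.0125 without treated pool 1, -0.06 without control pool 3 and -0.01 without control pool 4. Glycam1 turned to -0.0742 without treated pool 3 and -0.1583 without control pool 1. With 1 pool left out, Glycam1 ran from -0.1583 to 1.5958, Csn2 from -1.1575 to 0.1158, Mcm6 from -0.4708 to 0.2658, Rxra from -0.0692 to 0.0442 and Rxrg from -0.06 to 0.1133. The causes were not tested. A floor for linear values was planned and not run, since the values are on a log scale. An exact test of 4 against 4 pools cannot go below 0.0286, and signal over background was not examined since the deposited values give no detection call.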
